A study of Mus musculus with 3 samples.

Results

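The circadian clock is a loop of transcription factors that runs in most cells of the body. CLOCK and its partner ARNTL (BMAL1) bind E-box elements and switch on the *Per* and *Cry* genes, whose proteins then repress CLOCK and ARNTL. A second loop is formed by the nuclear receptors REV-ERB (*Nr1d1* and *Nr1d2*) and ROR, which repress or activate *Arntl* through their own response elements, and the PAR bZIP factor DBP carries the rhythm to output genes. Leydig cells of the testis make testosterone, and clock genes in these cells are known to influence steroid output.

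Peaks of Ad4BP/SF-1 (NR5A1), the nuclear receptor that drives steroidogenic genes, were examined at 10 clock genes out of 21938 protein-coding genes: *Clock*, *Per1*, *Per2*, *Per3*, *Cry1*, *Cry2*, *Nr1d1*, *Nr1d2*, *Dbp* and *Bhlhe40*. A peak was assigned to a gene when any of its bases fell within the annotated gene or less than 50 kb from either end (GENCODE annotation, mm10). The 10 genes were listed by name and not by a rule on peak score or position, although they were chosen with earlier results of these data known. The study performed chromatin immunoprecipitation with sequencing (ChIP-seq) on Leydig cells purified on a density gradient from pooled testes of 9-week-old male ICR mice. The cultured cells were given vehicle or cAMP, the second messenger of luteinizing hormone, and 1 ChIP library of each was called into a peak list. The dose and duration of cAMP are not given in the sources used here, and an input DNA sample was not used here. With 1 library per condition there is no replicate error, so no difference between the lists was tested, and a peak found in 1 list alone is a call and not a measured change.

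The vehicle list held 5721 peaks and the cAMP list 4025. Every entry carries a score derived from the peak caller's p-value (its negative log10, multiplied by 10), and the lists begin at 50, a p-value of 1e-05. The files hold no read counts and the depth of either library is unknown. Because such a score grows with depth, each peak is also described by its place, the share of its own list with a lower score. The label of the immunoprecipitate was checked at 9 genes of steroidogenic cells, of which 6 had a vehicle peak (*Star*, *Cyp11a1*, *Cyp17a1*, *Nr5a1*, *Scarb1* and *Fdx1*) and 5 a cAMP peak, *Cyp17a1* having none, beside 36.7% and 28.9% of all protein-coding genes with a peak within 50 kb. *Hsd3b1*, *Insl3* and *Nr0b1* had no peak in either list.

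Peaks were called at 5 of the clock genes and at none of the other 5. In the vehicle list, *Per1*, *Cry2*, *Nr1d1* and *Bhlhe40* had at least 1 peak, which is 4 of 10 beside 36.7% of all protein-coding genes. In the cAMP list these were *Per1*, *Nr1d1*, *Nr1d2* and *Bhlhe40*, again 4 of 10, beside 28.9% of all genes. *Per1*, *Nr1d1* and *Bhlhe40* had peaks in both lists (3 of 10, beside 22.5%), and 5 of 10 had a peak in either (beside 43.1%). *Cry2* alone had peaks only in the vehicle list (1 of 10, beside 14.3%) and *Nr1d2* alone only in the cAMP list (1 of 10, beside 6.37%). With 10 genes a single gene moves a share by 10 percentage points, and none of these counts differed from the share of all genes by much more than 1 gene. Among the 15060 genes between 5.12 and 94.9 kb long, the span of the 10 clock genes, the shares were 38% for vehicle and 29.4% for cAMP.

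**Figure D1:**
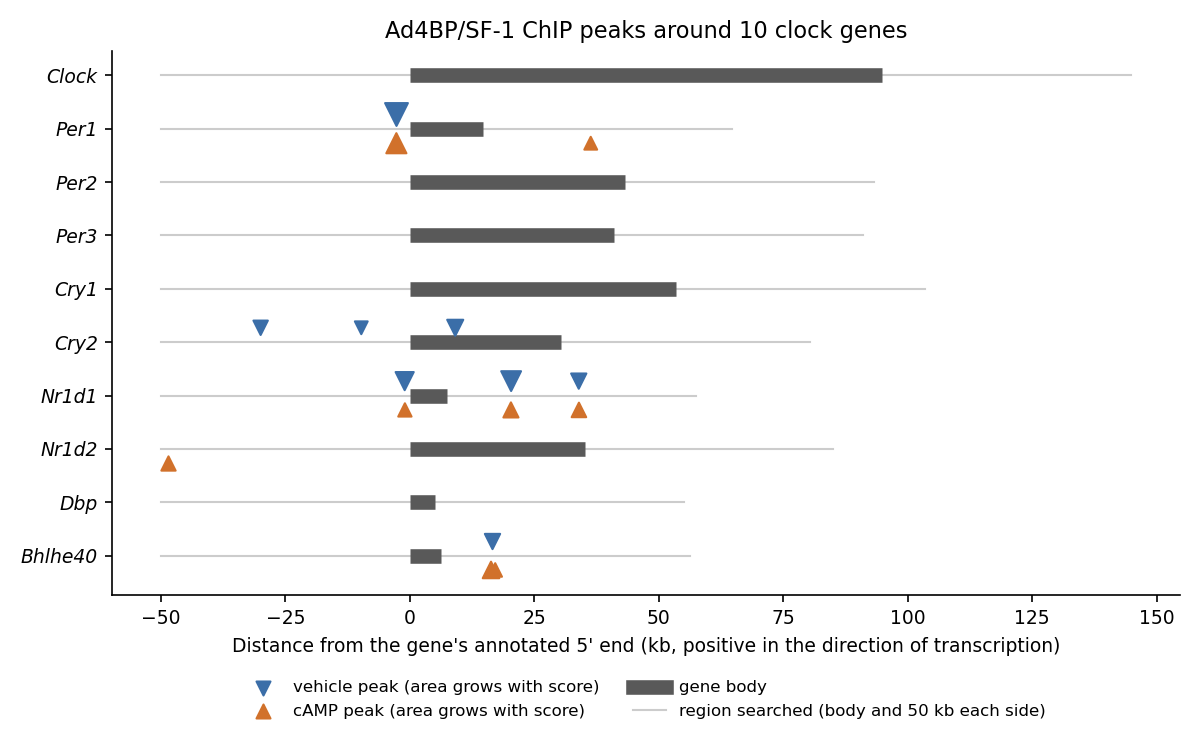
Positions of the 16 peaks around the 10 clock genes, by distance in kb from each gene's annotated 5′ end. Dark bars are gene bodies, thin lines the region searched, and triangles peak centres of the vehicle (blue) and cAMP (orange) lists. Only 1 peak, a vehicle peak of *Cry2*, lies inside a gene body, and *Clock*, *Per2*, *Per3*, *Cry1* and *Dbp* have none.

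There were 8 vehicle and 8 cAMP peaks at these genes. All 16 held the Ad4BP/SF-1 consensus, searched on both strands as TCAAGGTC, CCAAGGTC, TCAAGGCC or CCAAGGCC (8 of 8 beside 80.4% of all vehicle peaks, and 8 of 8 beside 77.1% of all cAMP peaks). The counts of the lists are not independent, since 5 pairs of overlapping peaks held the same copies. The following stretches of the mm10 reference show copies from each gene with a peak, since the consensus is the element that Ad4BP/SF-1 binds and was found in every one of these peaks. Each is written 5′ to 3′ on the strand that carries the consensus, with consensus letters in capitals.
Per1 upstream peak (chr11:69092467-69092534, minus strand): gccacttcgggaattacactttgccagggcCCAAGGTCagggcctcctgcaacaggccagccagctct
Per1 downstream cAMP peak in Aloxe3 (chr11:69131628-69131657, minus strand): cagacCCAAGGTCAAGGTCatccatgctca
Cry2 intron 2 vehicle peak, copy nearest the centre (chr2:92424906-92424973, minus strand): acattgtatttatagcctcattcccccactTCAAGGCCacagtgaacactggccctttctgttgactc
Cry2 intron 2 vehicle peak, other copy (chr2:92424738-92424805, minus strand): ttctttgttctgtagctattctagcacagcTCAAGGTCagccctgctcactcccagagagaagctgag
Cry2 near upstream vehicle peak (chr2:92443696-92443763, plus strand): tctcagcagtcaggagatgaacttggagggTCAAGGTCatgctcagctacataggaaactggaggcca
Cry2 far upstream vehicle peak (chr2:92463959-92464026, plus strand): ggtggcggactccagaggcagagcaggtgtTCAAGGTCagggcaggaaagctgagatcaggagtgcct
Nr1d1 upstream peak (chr11:98776287-98776354, plus strand): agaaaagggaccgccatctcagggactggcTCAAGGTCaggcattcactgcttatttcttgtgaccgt
Nr1d1 peak in Thra intron 2 (chr11:98755013-98755080, plus strand): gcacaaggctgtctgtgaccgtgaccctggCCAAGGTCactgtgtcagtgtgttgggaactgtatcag
Nr1d1 peak at the Thra 5′ end (chr11:98741342-98741371, plus strand): ctgtaatgtgtTCAAGGTCacacagggagt
Nr1d2 cAMP peak (chr14:18287682-18287749, plus strand): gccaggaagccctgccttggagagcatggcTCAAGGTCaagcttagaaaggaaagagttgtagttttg
Bhlhe40 peak called in both lists (chr6:108677096-108677163, plus strand): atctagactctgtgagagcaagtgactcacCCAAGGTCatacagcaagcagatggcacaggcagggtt
Bhlhe40 second cAMP peak (chr6:108677806-108677873, minus strand): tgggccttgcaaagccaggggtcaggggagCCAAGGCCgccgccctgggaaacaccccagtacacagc

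The clock gene peaks held 14 distinct copies of the consensus, of which 8 were spelled TCAAGGTC, 4 CCAAGGTC, 1 TCAAGGCC and 1 CCAAGGCC. An A followed the consensus in 13 of 14, and in 12 the run therefore ended in AGGTCA, the half-site shared by many nuclear receptors including REV-ERB and ROR. Over the whole lists, 81.4% of vehicle copies and 84.4% of cAMP copies were followed by A. Of all vehicle copies, 42.6% were spelled TCAAGGTC, 17.5% CCAAGGTC, 27.8% TCAAGGCC and 12.1% CCAAGGCC. Of all cAMP copies these shares were 45.1%, 15.7%, 28.3% and 10.9%. The AGGTCA ending is thus part of the commonest spelling in both lists when A follows, and is not particular to the clock genes. None of the 14 copies lay in sequence masked as repeat in the reference, where 36.1% of all copies in vehicle peaks and 40.9% of those in cAMP peaks did so. The copies stood a median of 35.5 bp from the peak centre in the vehicle list (range 1.5 to 138 bp) and 43.5 bp in the cAMP list (range 2.5 to 190 bp), beside a median of 45.5 bp over all copies of either list.

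**Figure D2:**
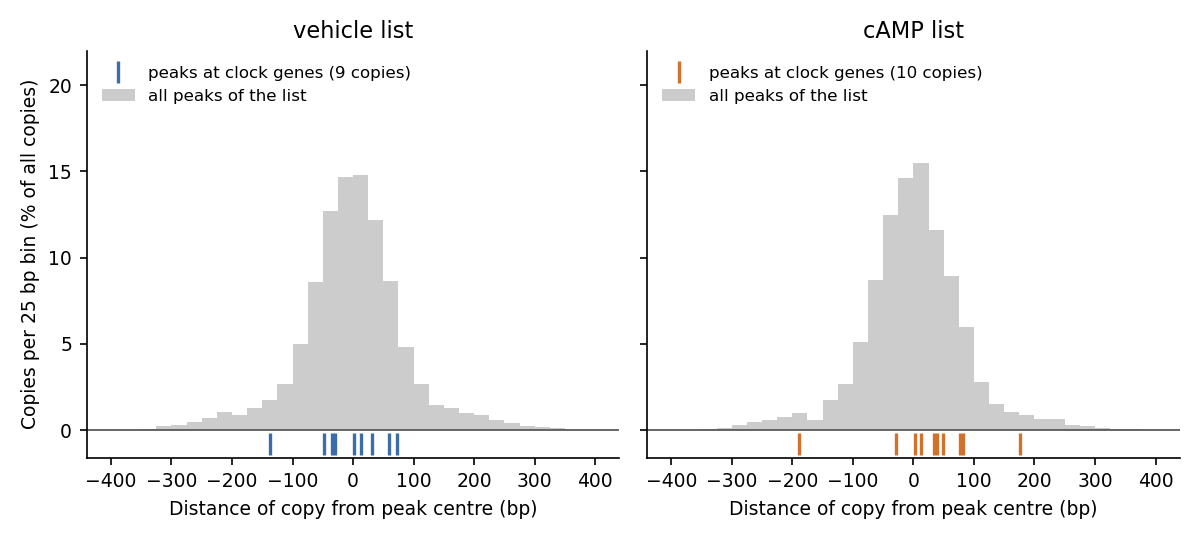
Distance in bp of each consensus copy from its peak centre, in the vehicle list (left) and the cAMP list (right). Grey bars give the share of all copies per 25 bp bin and coloured ticks the 9 vehicle and 10 cAMP copies in clock gene peaks, most of which fall under the central part of the bars.

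The *Per* genes encode repressors that, bound to the CRY proteins, close the main loop. *Per1* (chr11:69095217-69109960, plus strand) had the highest-scoring peak of all 10 genes in both lists. The vehicle peak (chr11:69092097-69092785) scored 233.06, was 195th of its list and stood above 96.6% of it. The cAMP peak (chr11:69092184-69092876) scored 173.59, was 225th and stood above 94.4% of its list. The peaks shared 602 bp, their centres were 89 bp apart, and they contained the same single copy of the consensus. Their centres lay 2.78 and 2.69 kb upstream of the 5′ end in GENCODE. RefSeq places the nearest *Per1* start 3.73 kb farther into the gene, and from that start the same centres lay 6.51 and 6.42 kb upstream. Both peaks reached into the neighbouring gene *Vamp2*, which encodes a synaptic vesicle membrane protein and ends at 69092384, covering its last 288 and 201 bp.

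The central bases of the *Per1* upstream peak outside *Vamp2* are shown on the strand of *Per1*, where the consensus appears as its reverse complement (capitals).
Per1 upstream peak, central bases (chr11:69092385-69092591, plus strand): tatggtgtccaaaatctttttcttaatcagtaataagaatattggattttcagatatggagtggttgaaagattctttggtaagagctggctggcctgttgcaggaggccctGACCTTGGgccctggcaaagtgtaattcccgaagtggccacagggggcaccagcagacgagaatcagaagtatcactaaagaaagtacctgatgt

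A further peak within 50 kb of *Per1* was called in the cAMP list alone. It lay 21.4 kb past the 3′ end of *Per1* (chr11:69131369-69131764), with its centre in intron 5 of *Aloxe3*, an epidermal lipoxygenase gene whose start was 5.67 kb away. Its score of 50.74 was close to the lowest of the list and stood above only 3.5% of it, and the nearest vehicle peak was 38.6 kb away. It was also the narrowest of the 16 peaks, at 396 bp, and it held an overlapping pair of consensus copies, the stretch printed above. An annotated exon lay within 30 bp of these copies.

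*Per2* (chr1:91415982-91459324, minus strand) and *Per3* (chr4:151003652-151044665, minus strand), the other *Per* genes, had no peak within 50 kb. *Per2* missed the limit narrowly. A strong pair of peaks stood 50.7 kb past its 3′ end, with a vehicle peak (chr1:91364683-91365252) of score 172.11 and a cAMP peak (chr1:91364727-91365237) of score 142.59. These stood above 92.2% and 90.1% of their lists and had 2 consensus copies each, but the nearest protein-coding start, 1.46 and 1.45 kb away, was that of *Erfe*, the erythroferrone gene. On the near side of the limit, the most distant peak counted was that of *Nr1d2* at 48.3 kb. The next peak beyond the limit was a cAMP peak of score 60.88 in *Med24*, 54.6 kb from *Nr1d1*. For *Per3* the nearest peaks were 93.3 kb (vehicle) and 116 kb (cAMP) away. A gene without a called peak was not shown to be unbound, since binding scored under 50 leaves no entry in these lists, which begin at a stricter p-value than the threshold named in the study's methods.

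The cryptochromes are the other repressors of the main loop. *Cry2* (chr2:92403646-92434043, minus strand) had 3 vehicle peaks and no cAMP peak, a pattern found at 0.825% of all genes (at least 3 vehicle peaks and none in the cAMP list). This pattern was defined after the *Cry2* peaks were seen, and *Cry2* kept only 2 peaks when the vehicle list was cut to the 4025 entries of the cAMP list. The first (chr2:92424607-92425211) was the only one of the 16 inside a clock gene, in intron 2 and 9.13 kb downstream of the 5′ end. Its score was 98.64, above 72.7% of the vehicle list, and it contained 2 consensus copies. A processed transcript, D930015M05Rik, runs over the same bases on the opposite strand. The other vehicle peaks lay upstream, at 9.73 kb (chr2:92443478-92444078) with a score of 50.48, and at 29.9 kb (chr2:92463755-92464227) with a score of 72.95. They stood above 1.22% and 50.8% of the list, so the nearer was among the weakest calls made. The farther one was 3.45 kb from the start of *Slc35c1*, a GDP-fucose transporter gene.

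The 3 *Cry2* peaks were spaced 18.3 and 19.7 kb apart. The nearest cAMP peaks to them were 207, 226 and 246 kb away, and the gene itself was 186 kb from the nearest. *Cry1* (chr10:85131700-85185064, minus strand) had no peak within 50 kb in either list, with the nearest vehicle and cAMP peaks at 91.3 and 116 kb.

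*Nr1d1* (chr11:98767932-98775333, minus strand) encodes REV-ERBα, the haem-binding repressor of *Arntl*. It had 3 vehicle and 3 cAMP peaks, and each vehicle peak overlapped a cAMP peak. At least 3 peaks in each list, a count chosen after these peaks were seen, were found at 1.71% of all genes. The pair nearest the gene was 1.02 kb (vehicle, chr11:98776071-98776631) and 0.975 kb (cAMP, chr11:98776020-98776597) upstream of the 5′ end, and was the nearest of the 16 peaks to the start of a clock gene. Its scores were 135.0 and 57.22, which stood above 85.9% and 27% of their lists. The central 300 bp of the vehicle peak are shown on the strand of *Nr1d1*, with the reverse complement of the consensus in capitals.
Nr1d1 upstream peak, central bases (chr11:98776202-98776501, minus strand): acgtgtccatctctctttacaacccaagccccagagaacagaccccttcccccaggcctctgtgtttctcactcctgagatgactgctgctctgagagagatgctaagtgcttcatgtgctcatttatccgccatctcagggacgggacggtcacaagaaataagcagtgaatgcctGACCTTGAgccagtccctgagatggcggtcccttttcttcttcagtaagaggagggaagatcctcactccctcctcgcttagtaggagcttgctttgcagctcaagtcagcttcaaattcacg

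The other pairs of *Nr1d1* lay in *Thra* (chr11:98740638-98769006, plus strand), the thyroid hormone receptor α gene, which overlaps the 3′ end of *Nr1d1* on the opposite strand. One was in *Thra* intron 2, 12.6 kb from *Nr1d1*, with scores of 167.71 (vehicle, chr11:98754616-98755332) and 83.36 (cAMP, chr11:98754688-98755338). The other was 26.2 and 26.3 kb from *Nr1d1* and only 0.419 and 0.457 kb from a *Thra* start, with scores of 85.84 (vehicle, chr11:98741069-98741716) and 74.83 (cAMP, chr11:98741110-98741599). Position alone therefore assigned 1 pair to *Nr1d1* and 2 pairs to *Thra* by nearest start, and the lists hold nothing that links a peak to a target gene.

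All 3 *Nr1d1* pairs had the lower score in the cAMP list, as did 61.1% of all 2167 matched pairs. The same held at every pair for 55 of the 215 genes with at least 3 matched pairs (25.6%), *Nr1d1* among them.

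*Nr1d2* (chr14:18204054-18239127, minus strand) encodes REV-ERBβ, the close relative of REV-ERBα. It had a single peak, in the cAMP list (chr14:18287450-18287905), at 48.3 kb from the gene and in intron 3 of *Ube2e1*, a ubiquitin-conjugating enzyme gene. The score was 70.85, above 54.4% of the list, and the nearest protein-coding start, that of *Rpl15*, was 16.3 kb away. The nearest vehicle peak was 304 kb from it. Both REV-ERB genes belong to the nuclear receptor superfamily, as does Ad4BP/SF-1 itself.

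*Dbp* (chr7:45705088-45710203, plus strand), the clock output factor that acts through D-box elements, had no peak within 50 kb. Its nearest peaks stood 80.4 kb (vehicle) and 121 kb (cAMP) away. *Clock* (chr5:76209868-76304792, minus strand), the longest of the 10 genes at 94.9 kb, had none either, and its nearest peaks were at 629 kb (vehicle) and 667 kb (cAMP).

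*Bhlhe40* (chr6:108660629-108666925, plus strand) encodes DEC1, a basic helix-loop-helix repressor that competes at E-boxes. Its vehicle peak (chr6:108676837-108677396) was 9.91 kb past the 3′ end, scored 85.85 and stood above 64.6% of its list. The overlapping cAMP peak (chr6:108676603-108677303) scored 107.04 and stood above 80.2%. These shared 467 bp, but their centres were 163 bp apart, against a median of 46 bp over all matched pairs. The cAMP peak was wider, 701 against 560 bp, and reached a second consensus copy that the vehicle peak did not. A further cAMP peak (chr6:108677554-108678029) with a score of 60.59, above 36.6% of the list, began 251 bp beyond it and 158 bp beyond the vehicle peak. *Bhlhe40* thus had more called sequence in the cAMP list and *Cry2* more in the vehicle list, each from 1 library.

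Of the 8 vehicle peaks at clock genes, 5 overlapped a cAMP peak by at least 1 bp (beside 37.9% of the whole vehicle list), and of the 8 cAMP peaks 5 overlapped a vehicle peak (beside 53.8%). The 5 pairs were 1 at *Per1*, 3 at *Nr1d1* and 1 at *Bhlhe40*. By place in its own list, the cAMP peak minus the vehicle peak was −2.18 percentage points at *Per1*, and −5.2, −24.9 and −58.9 points at the *Thra* 5′ end, the *Thra* intron and the *Nr1d1* upstream pair. At *Bhlhe40* it was 15.7 points. Place was lower in the cAMP list at 4 of the 5 pairs, as it was at 55.5% of all 2167 matched pairs, whose median difference was −2.01 points. The *Nr1d1* upstream pair, the lowest of the 5 and singled out after its value was seen, had a difference that 88 of the 2167 pairs (4.06%) matched or passed. Place is relative to lists of unequal length, and it was not recomputed at equal lengths. The −24.9 points of the *Thra* intron pair were matched or passed by 20.3% of pairs, and the 15.7 points of *Bhlhe40* by 24.1%.

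**Figure D3:**
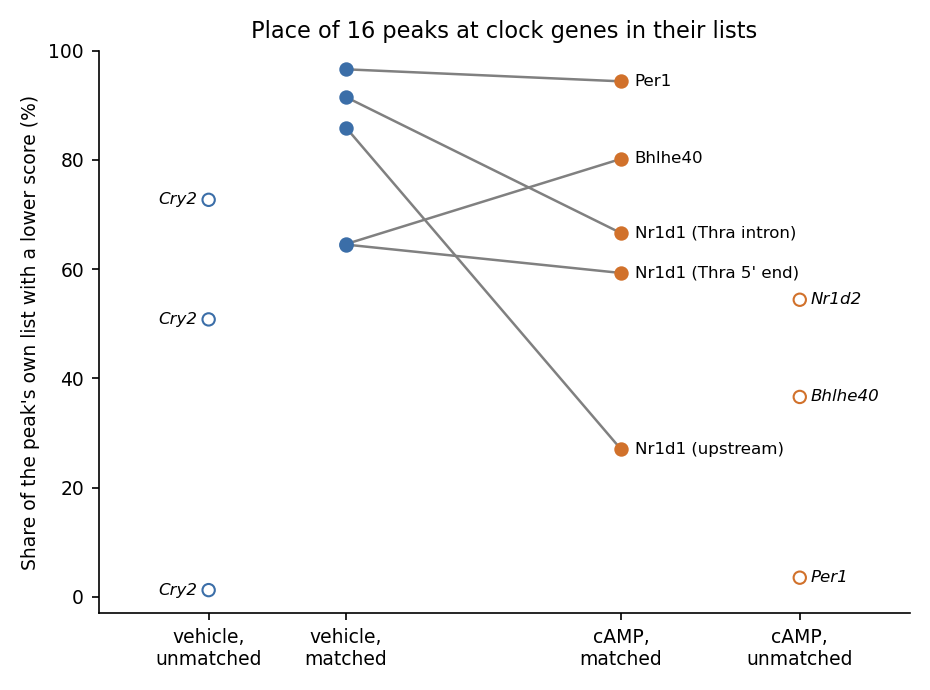
Place of each of the 16 peaks in its own list, as the percentage of that list with a lower score. Filled points joined by a line are the 5 pairs found in both lists and open points the peaks found in 1 list. The *Nr1d1* upstream pair runs from 85.9% in the vehicle list to 27% in the cAMP list, while *Per1* stays near the top of both.

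In the vehicle list the highest scores at these genes belonged to *Per1*, at 2.78 kb upstream, and to the *Thra* intron peak at 20.4 kb from the *Nr1d1* 5′ end, and in the cAMP list to *Per1* and *Bhlhe40* (107.04). The peaks more than 20 kb from the gene body scored between 50.74 and 85.84, but scores as low also occurred closer in, such as 50.48 at 9.73 kb upstream of *Cry2* and 57.22 at 0.975 kb upstream of *Nr1d1*. Of the 16 peaks, 8 were within 10 kb of their clock gene, and the nearest protein-coding start was that of the clock gene for 9. The remaining peaks had *Aloxe3*, *Slc35c1*, *Thra* or *Rpl15* as the gene with the nearest start. The median GC content was 51.3% for the vehicle peaks (range 47.4 to 54.5%) and 49.7% for the cAMP peaks (range 45 to 52.9%). Over the whole lists the medians were 48.2% (quartiles 44.4 and 52.2%) and 47.4% (quartiles 43.6 and 51.4%). Median widths were 603 bp (range 473 to 717 bp) and 534 bp (range 396 to 701 bp), beside 513 and 476 bp over the lists.

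The share of genes with a peak depended on how far from the gene a peak was sought. Within the gene body alone, 1 of the 10 had a vehicle peak (*Cry2*) and 0 a cAMP peak, beside 12.6% and 9.16% of all genes. With 10 kb on either side there were 4 and 3, beside 19.3% and 14%. With 100 kb there were 8 and 5, beside 49.4% and 41.3%. The members added between 50 and 100 kb were *Per2*, *Per3*, *Cry1* and *Dbp* in the vehicle list and *Per2* in the cAMP list.

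**Figure D4:**
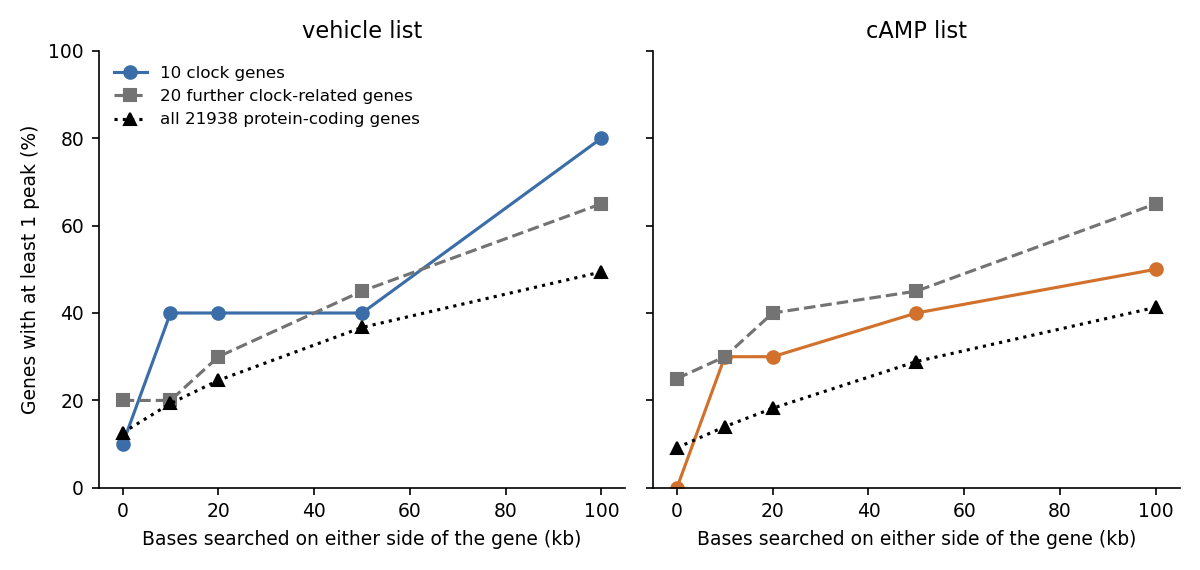
Percentage of genes with at least 1 peak against the kb searched on either side of the gene, in the vehicle (left) and cAMP (right) lists, for the 10 clock genes, 20 further clock-related genes and all 21938 protein-coding genes. At 50 kb the clock genes stand at 40% in both lists, beside 36.7% and 28.9% of all genes.

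Elements of the clock itself were sought in the central 300 bp of each peak, on both strands. The E-box CACGTG, which CLOCK and ARNTL bind, was in 1 of the 8 vehicle peaks, the one in the *Thra* intron, and 0 of the 8 cAMP peaks, beside 4.63% and 3.95% of all peaks. The overlapping cAMP peak contains the same E-box, which fell outside its central 300 bp because its centre was 39 bp away. The half-site AGGTCA was in 8 of 8 and 6 of 8, beside 65.3% and 64.2%. Most of these were the end of the consensus followed by A, and a half-site sharing no base with a consensus copy was in 0 of 8 vehicle peaks and 1 of 8 cAMP peaks (*Nr1d2*), beside 25.9% and 25.1%. Neither the D-box (TTATGTAA or TTACGTAA) nor the cAMP response element TGACGTCA was found in any clock gene peak, where 1.49% and 0.454% of all vehicle peaks and 1.64% and 0.298% of all cAMP peaks held them. A match to these letters is a description of the sequence and not a measured binding site.

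Of 20 further genes of the clock and its regulators, 9 had a vehicle peak and 9 a cAMP peak within 50 kb (beside 36.7% and 28.9% of all genes). Some of these genes are long, up to the 734.5 kb of *Rora*, and a longer gene gives more bases to search. The partner of CLOCK, *Arntl*, had a vehicle peak at its start (chr7:113207230-113207907) with its centre 0.103 kb inside exon 1, a score of 94.14 and a place above 70.3% of the list. No cAMP peak lay within 148 kb of it. This peak had none of the 4 consensus spellings but 1 half-site AGGTCA, a run found in the central 300 bp of 65.3% of all vehicle peaks and in 16.3% of all RefSeq promoters, 77 bp inside the gene (chr7:113207530-113207559, plus strand, half-site in capitals).
Arntl start: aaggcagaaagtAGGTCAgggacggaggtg

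Peaks only in the vehicle list were found at 4 of the 20 (beside 14.3% of all genes), *Arntl*, *Timeless*, *Csnk1d* (casein kinase 1δ, which phosphorylates PER) and *Sirt1* (a deacetylase). The *Timeless* peaks lay in introns of *Stat2* and the *Sirt1* peak in an intron of *Herc4*. Peaks only in the cAMP list were also found at 4 of the 20 (beside 6.37%), which included *Rorb*, *Nfil3* (a repressor at D-boxes) and *Nampt* (the rate-limiting enzyme of NAD salvage). Those with peaks in both lists included *Arntl2*, *Rora*, *Tef* and *Btrc*. In all, 13 of the 20 had a peak in either list (beside 43.1% of all genes) and 5 in both (beside 22.5%). The 7 genes with none were *Npas2*, *Hlf*, *Bhlhe41*, *Ciart*, *Csnk1e*, *Fbxl21* and *Fbxw11*. Of the 14 vehicle peaks at these genes 9 held the consensus, beside 80.4% of all vehicle peaks, and of the 13 cAMP peaks 11, beside 77.1% of all cAMP peaks.

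**Figure D5:**
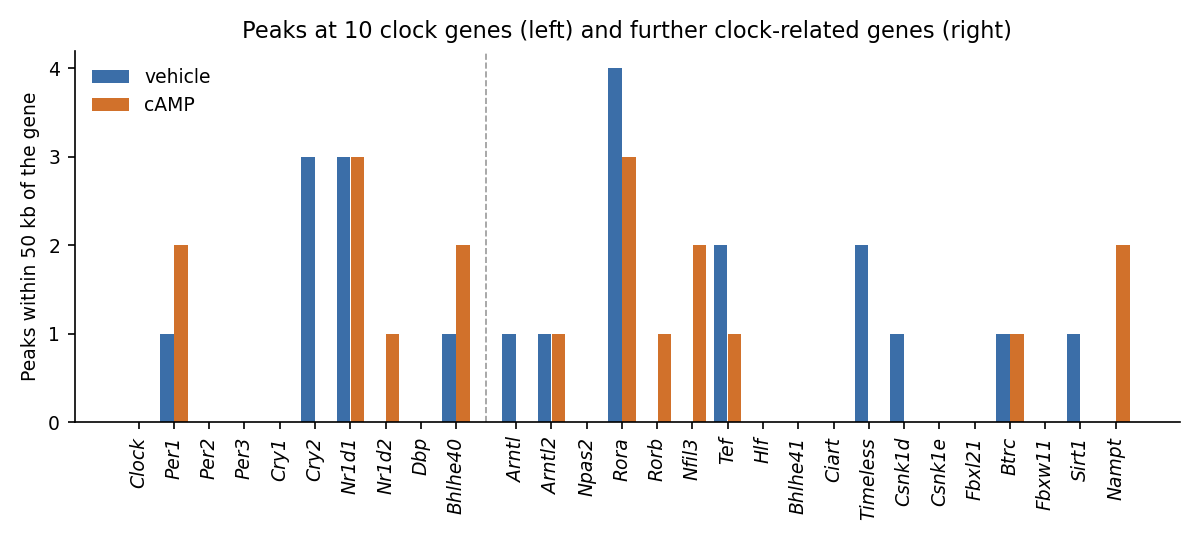
Number of vehicle (blue) and cAMP (orange) peaks within 50 kb of each of the 10 clock genes (left of the dashed line) and of the further clock-related genes named in the text. *Cry2* has 3 vehicle and 0 cAMP peaks, *Nr1d1* 3 of each, and *Rora* has the most, with 4 and 3.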

How the data were processed

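ChIP-seq reads of Leydig cells were mapped by the authors to mm10 with Bowtie (0.12.8 in the submitters' processing notes; the study's methods name another release), and peaks were called with MACS without its shifting model on uniquely mapped reads. Whether the input sample served as control is not stated. The deposited score of each peak is 10 times the negative log10 of the MACS p-value. The lists begin at a score of 50, a stricter limit than the p-value threshold in the study's methods, and the reason for the difference is not given in the sources used here. Peaks were called on 1 library per condition, and read depth is unknown.

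Genes were taken from GENCODE M21, consensus and element matches from the RefSeq mm10 reference, repeats from its lower-case letters, and further *Per1* starts from RefSeq. Overlaps, distances and matches were computed in Python 3.11.15 with pysam 0.24.0 and samtools 1.23.1, tested on simulated data, and plotted with matplotlib 3.10.9. A peak's position is that of its centre. No test was made. The text names the 10 genes, the further genes other than 2 that are counted but not reported here, the gene with the nearest protein-coding start to each peak and any gene holding a peak. The members and lists were chosen with earlier results of these data known. Alternatives varied the width searched, the score minimum (75 or 100), list length, overlap rule and consensus letters.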

Additional observations from a re-analysis of the deposited data

How the results depend on the processing

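Of 80 alternative counts, 43 stayed within 1.5 times the reported count and 37 moved further. In the gene body alone, genes with a vehicle peak, cAMP peak, both and either came to 1, 0, 0 and 1, and peaks to 1 and 0. With 10 kb on either side, vehicle and cAMP peaks came to 5 and 3, of which 3 and 3 had a counterpart and 5 and 3 the consensus. With 20 kb cAMP peaks came to 5. With 100 kb, 8 genes had a vehicle peak and 9 either, with 13 vehicle peaks. At a score of at least 75, cAMP peaks came to 3, all with the consensus, and 3 vehicle and 3 cAMP peaks had a counterpart. At 100, genes came to 2 (vehicle), 2 (cAMP), 1 (both) and 3 (either), peaks to 3 and 2, all with the consensus, and counterparts to 1 and 1. The whole vehicle and cAMP lists fell to 2666 and 1622 peaks at 75, and to 1521 and 927 at 100. No share of all genes was set beside the counts at these scores, or beside the 9 genes at 100 kb. Whether clock genes lost or gained more than all genes was therefore not tested. Counting only peaks whose nearest protein-coding start was the clock gene's gave 5 vehicle and 4 cAMP peaks. For the 20 further genes, the gene body alone gave 4 (vehicle) and 5 (cAMP), 10 kb gave 4 (vehicle), and a score of at least 100 gave 3 and 3. Vehicle and cAMP lists of equal length, another overlap rule, other consensus letters and the central 200 bp moved no count by more than 1.5 times, but at equal length the weakest of the 3 *Cry2* peaks was lost. The alternatives that moved a count searched fewer or more bases or peaks, apart from the nearest-start rule. That rule kept the same bases and lists but left out peaks nearer to another gene's start. Read depth, which can affect how many weak peaks are called, is unknown for both lists. No paired analysis was possible because each condition has 1 library, and no replicate could be left out.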

Other observations

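Among the further clock-related genes, *Nfil3* and *Nampt* each had 2 cAMP peaks and no vehicle peak. Those of *Nfil3* lay 1.04 and 7.18 kb upstream of its 5′ end, with scores of 80.71 and 60.32, and the nearest vehicle peaks were 159 and 166 kb from them. Those of *Nampt* lay in intron 1 and in exon 9, with scores of 67.89 and 68.01. *Rora*, the activating counterpart of the REV-ERB receptors, had 4 vehicle and 3 cAMP peaks across a gene of 734.5 kb, and the strongest, called in both lists 103 kb downstream of the 5′ end in intron 1, scored 136.58 and 138.88. The pair nearest the *Rora* 5′ end, at 2.58 and 2.68 kb downstream, scored 104.65 (vehicle) and 60.85 (cAMP).

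The share of consensus copies in masked repeats differed by spelling over the whole vehicle list, from 6.28% of CCAAGGTC and 6.98% of CCAAGGCC copies to 44.5% of TCAAGGTC and 54.7% of TCAAGGCC copies. The TCAAGGCC spelling, which made up 27.8% of all vehicle copies, was 1 of the 14 distinct copies at the clock genes.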
